A study of Mus musculus with 12 samples.

Results

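The genes described here are 10 immediate early genes of mouse: the AP-1 subunits Fos, Fosb, Jun, Junb and Jund, the EGR factor Egr1, the response genes Ier2 and Nr4a1, and the feedback regulators Dusp1 and Zfp36. They were chosen by symbol, and all 10 were found among the 35976 gene symbols of each library. Immediate early genes are transcribed from promoters held ready by factors such as SRF and CREB, without the need for new protein, once growth factor or stress signals reach them through MAP kinases. Their transcripts are short-lived. In blood stem cells they are known as genes that respond both to cytokines and to the handling of cells during isolation.

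The libraries were 3′ tag RNA-seq libraries of cells given as haematopoietic stem cells and gated as lineage-negative, c-Kit-positive and Sca-1-positive, a gate that holds stem cells together with multipotent progenitors. There were 6 groups of 2 libraries: cells of 2-month-old mice profiled when freshly isolated, cells of 2-month-old mice profiled after 24 h of ex vivo cytokine stimulation, and freshly isolated cells of 24-month-old mice, each from WT mice (replicates 1 and 2) and from mice labelled as knockouts of Cd38, the NAD-consuming surface enzyme (labelled KO, replicates 3 and 4). The cytokines, the kind of knockout allele and whether libraries came from separate animals are not given in the sources used here, so every p-value below measures the spread between these libraries, which may be technical. The study asked what CD38 does in these cells at rest, under stimulation and with age.

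Library totals ran from 1600155 to 5164720 counts, lowest in young fresh cells. All 12 stem cell identity markers examined had counts in each of the 6 groups. Cdh5 of endothelium and Cd3e of T cells had 0 counts in each library, but other markers examined with them had counts. Stroma and endothelium markers summed to 14.2 to 72.3 CPM (counts scaled to library size) over the 12 libraries, and T and NK cell markers to 14.3 to 231. In young fresh libraries mature neutrophil markers summed to 4980 to 9548 CPM and stem cell identity markers to 2678 to 2951. Transcripts of Cd38 did not follow the labels in young fresh cells. They stood at 17.6 and 24.6 CPM in WT against 62.8 and 31.9 in the libraries labelled KO. In old cells they were 74.4 and 41.4 in WT against 13.2 and 19.9 in labelled KO, and in stimulated cells the groups overlapped, at 0.998 and 8.58 against 3.59 and 2.32. A 3′ tag outside a deleted part is no check of a knockout, and the deleted part is not given, so the genotype is called by its label throughout. Young fresh WT replicate 1 also stood apart: it had 0 counts of Xist where the other 11 libraries had 198 to 745 CPM, and 200 CPM of Y-linked genes where the others had at most 6.62.

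Sequence around the start site was available from RefSeq (GRCm38.p6, the assembly of mm10) for 8 of the 10 genes, all except Egr1 and Ier2, as windows of 300 bases that begin upstream of the start and run a short way past it. The sequences printed here lie upstream of the start used for each window. In Fosb and Nr4a1 that start lies inside the annotated gene. Fosb spans chr7:19302696-19310118 on the minus strand, so its printed sequence lies within the gene. Nr4a1 spans chr15:101253902-101274795, and its matches lie from chr15:101266605 on, also within the gene. The letters TGACG, the core of the sites bound by CREB and ATF factors, were searched on both strands. They occurred in 5 of those 8 windows (Fos, Fosb, Junb, Nr4a1 and Dusp1), against 20.8% of all 32851 promoter windows. The matches of Fos and Fosb, which had no counts in young fresh cells, are shown beside those of Junb and Dusp1, which hold the same letters and had counts there. Those of Nr4a1, which also had counts there, are not printed. Each line reads 5′ to 3′ on the gene's strand, with the TGACG letters, or in Dusp1 the palindrome that contains them on both strands, in capitals.
Fos, chr12:85473753-85473773: cgtagagtTGACGacagagcg
Fos, chr12:85473816-85473836: ccgcccagTGACGtaggaagt
Fosb, chr7:19310093-19310113: gttgcgggTGACGcaagcgcg
Junb, chr8:84978842-84978862: cctgacagTGACGcgagccgc
Dusp1, chr17:26508651-26508671: taggccgaTGACGtctttgct
Dusp1, chr17:26508600-26508623: agggcgggTGACGTCAccgcccgg
Fos and Fosb lie on the plus and minus strand of chromosomes 12 and 7, and Junb and Dusp1 on the minus strand of chromosomes 8 and 17. The TGACG matches nearest the start used for the window ended 62 bases before it in Fos and 56 before it in Fosb. In Nr4a1 the nearest ended 36 bases before it, in Junb 102 and in Dusp1 136. The AP-1 letters TGANTCA occurred in 0 of the 8 windows, against 7.81% of all. The TATAAA letters occurred in 2 (upstream of the start in Fos and from the first base after it in Junb, against 13.6%), and the CArG box of SRF in 1 (Zfp36, against 1.63%). A match, or the lack of one, describes these windows only, and sequence farther upstream was not searched.

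In young cells the AP-1 genes had higher levels after stimulation than when fresh, and Fos passed the test. Fos, the AP-1 subunit that dimerises with Jun proteins, had 0 counts in each of the 4 young fresh libraries. After stimulation it stood at 12.6 and 29.7 CPM in WT and at 32.8 and 58.9 CPM in labelled KO. No stimulated library overlapped a fresh one, and over the floor of 3 counts across the 4 fresh libraries Fos was at least 80.6-fold higher. It was the 1 member of 9 tested that passed upward (edgeR quasi-likelihood test, Benjamini-Hochberg adjusted p = 0.0194), where 2.27% of the 10786 genes tested did. Below, rose and fell are used of genes with an adjusted p under 0.05. With no fresh count, Fos passed the filter on low counts through the stimulated libraries alone, so a gene tested on that route had to differ. That call ended when any 1 of the 4 stimulated libraries was left out, with adjusted p from 0.0713 to 0.150, and in a fit of all 12 libraries (0.0521). Without young fresh WT replicate 1, the library with no Xist counts, Fos passed (0.0343).

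Fosb, its close relative, was present at the edge of detection: 1.33 and 1.32 CPM in stimulated WT and 2.21 and 2.98 in stimulated labelled KO, from 4 to 9 counts a library. It had 0 counts in all 8 fresh libraries, young and old, so its level after stimulation was at least 4.74-fold above the floor of the young fresh libraries. With so few counts it was below the filter and was not tested.

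Of the 3 Jun genes, whose proteins can pair among themselves, Jund had the highest log2 fold change with stimulation, a ranking that was not tested. JunD is usually described as the steadily expressed member of the family. Its transcript stood at 1.88 and 4.00 CPM in young fresh WT, against 0 and 1.05 in young fresh labelled KO. After stimulation it stood at 21.0 and 31.4 in WT and 24.8 and 24.5 in labelled KO, with no overlap. The log2 fold change was 4.28 ± 0.97 (SE), just outside the threshold (adjusted p = 0.0512 by edgeR, n = 4 against 4), and Jund too passed the filter through the stimulated libraries alone. It passed with DESeq2 (5.8e-05) and with limma voom (0.0333), and its adjusted p was 0.213 in the edgeR fit of all 12 libraries and 0.243 to 0.291 when any 1 stimulated library was left out.

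Jun stood at 14.4, 14.3, 0 and 9.42 CPM in the young fresh libraries and at 43.6, 38.6, 57.4 and 71.9 CPM in the stimulated ones. Junb, a Jun protein often set against Jun in its effect on proliferation, stood at 33.2, 64.6, 91.3 and 8.90 CPM fresh and at 127, 122, 126 and 202 CPM stimulated, WT before labelled KO in both lists. Neither gene's stimulated values overlapped the fresh ones. Neither passed the test, at 2.64 ± 0.88 for Jun (adjusted p = 0.115) and 1.53 ± 0.60 for Junb (0.166, both by edgeR). For Junb the 2 replicates of a group differed 1.94-fold in fresh WT and 10.3-fold in fresh labelled KO, and 1.04-fold in stimulated WT and 1.60-fold in stimulated labelled KO.

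Egr1, a zinc finger factor that has been tied to stem cell quiescence and retention in the marrow, did not separate stimulated from fresh cells. Fresh young WT libraries held 3.76 and 10.3 CPM and those labelled KO 123 and 67.5, and after stimulation WT libraries held 18.6 and 53.2 CPM and those labelled KO 46.9 and 188. Over both genotypes the stimulated and fresh libraries overlapped, and the log2 fold change was 1.32 ± 0.59 (adjusted p = 0.215 by edgeR). They overlapped within labelled KO but not within WT, and neither genotype was tested alone. Ier2, a small nuclear protein induced with Fos, ranged from 3.06 to 12.5 CPM fresh and from 23.0 to 55.6 CPM stimulated, without overlap (2.01 ± 0.63, 0.0968).

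Nr4a1, an orphan nuclear receptor, stayed low, from 0 to 7.53 CPM fresh and from 3.33 to 30.8 stimulated (1.82 ± 1.21, adjusted p = 0.398 by edgeR). Among the feedback genes Zfp36, whose protein binds AU-rich messenger RNAs and speeds their decay, ranged from 0.571 to 34.0 CPM fresh and from 28.6 to 74.8 stimulated (1.99 ± 0.83, 0.187). Dusp1, a phosphatase that inactivates MAP kinases, ranged from 11.4 to 71.7 CPM fresh and from 22.0 to 72.9 stimulated, overlapping ranges, with a log2 fold change of 0.00 ± 0.67 (1.00). The difference between Dusp1 and the other members was not tested.

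**Figure D1:**
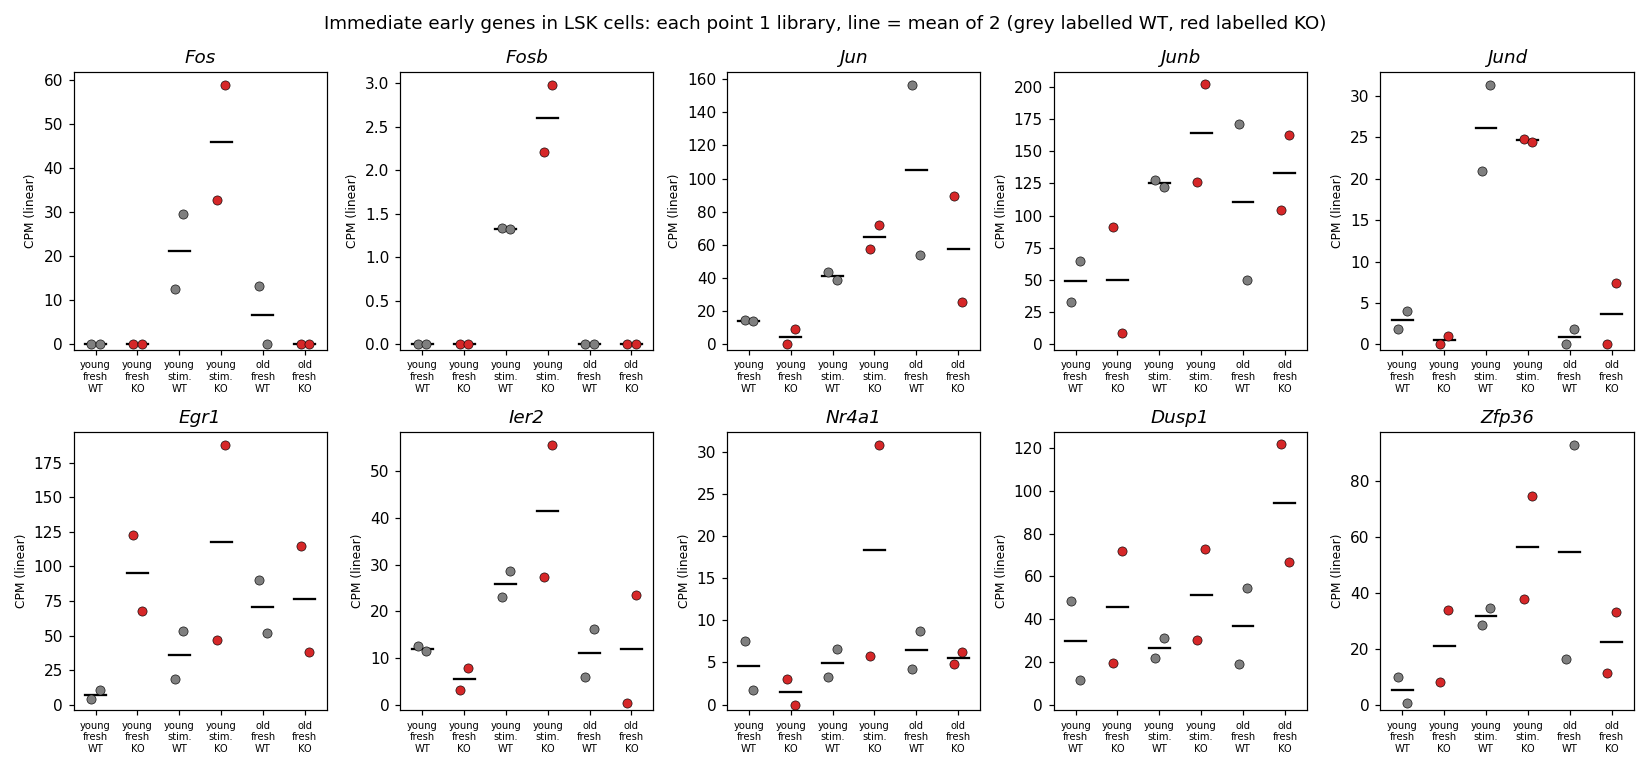
CPM of each of the 10 genes (linear axes, own scale per gene) in the 6 groups. Each point is 1 library, the line is the mean of 2, grey is labelled WT and red labelled KO. Fos and Fosb are at 0 in all young fresh libraries and Jund is at most 4.00 CPM there, while Dusp1 spans like values fresh and stimulated.

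Read as a group, 6 of the 9 tested members had an unadjusted p under 0.05 in the upward direction with stimulation (Fos, Jund, Ier2, Jun, Junb and Zfp36), where 16.2% of all tested genes did. Of the 9, Fos, Jund and Nr4a1 passed the filter only through the stimulated libraries, so neither this count nor the median is support. Of the other 6, 4 had such a p. In 5 of the 9 (Fos, Jund, Ier2, Jun and Junb), all 4 stimulated libraries lay above all 4 fresh ones, where 13.9% of all genes did. Fos and Jund are among these 5, so that count is no support either. The median log2 fold change was 1.99 over the 9, also with Fos set at its bound, and 1.76 over those 6, against 0.21 over all tested genes. The values over all tested genes include genes that passed the filter only through the stimulated libraries, so they are not matched to those 6. DESeq2 called 4 of the 9 (Fos, Jund, Jun and Ier2) and limma voom, weighted by group, 2 (Fos and Jund). In the edgeR fit of all 12 libraries 0 of 9 passed.

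Markers of several cell types moved in the same comparison. Those of mature neutrophils fell in 4 of 7, and their summed level ran from 4980 to 9548 CPM in young fresh libraries and from 751 to 1464 CPM in stimulated ones. Stem cell identity genes summed to 2678 to 2951 CPM fresh and 1844 to 2167 stimulated, and 2 of 12 fell, Hlf (-1.04 ± 0.14, adjusted p = 0.0110 by edgeR) and Meis1 (-1.09 ± 0.22, 0.0330). Monocyte and macrophage markers summed to 41.9 to 171 CPM fresh and 262 to 341 stimulated, and Ly6c2 rose of 7 tested (4.47 ± 0.68, 0.0144). T and NK cell markers summed to 14.3 to 34.7 CPM fresh and 113 to 231 stimulated, and Nkg7 rose of 2 tested (2.92 ± 0.33, 0.00442), while Cd3e had no counts. B cell markers summed to 0.627 to 21.4 CPM fresh and 21.0 to 184 stimulated, with 0 of 3 called. The part of these cells in the members' levels was not tested. Fewer cells of a type and less RNA per cell cannot be told apart in these bulk samples.

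**Figure D2:**
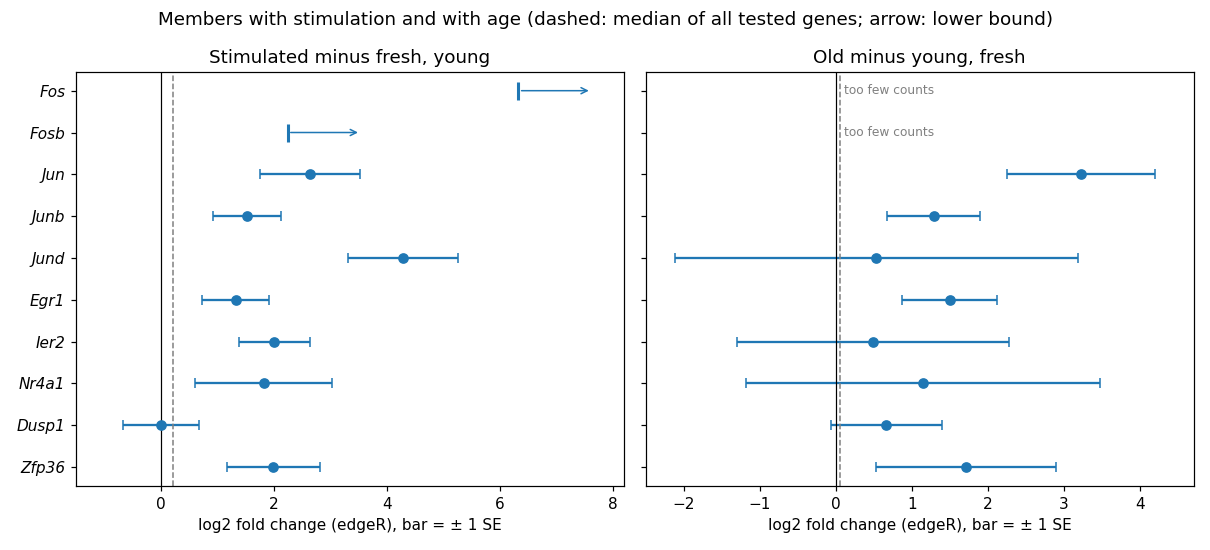
Log2 fold change of each member with stimulation (left, young cells) and with age (right, fresh cells), ± 1 SE by edgeR. Ticks with arrows are lower bounds of Fos (6.33) and Fosb (2.25), and the dashed line is the median of all tested genes. With stimulation all members but Dusp1 lie right of the dashed line, and with age Jun lies farthest right at 3.22.

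Genes of the rest of the pathway did not pass the adjusted test with stimulation, as 8 of the 9 tested members did not. Of other AP-1 subunits 0 of 6 tested passed, among them Atf7 with 3.50 ± 0.85 (adjusted p = 0.0574 by edgeR) and Fosl2, a Fos relative, with 1.91 ± 1.11 (0.336). Of 29 other immediate early genes 18 were tested and 0 passed. Of the 18, 7 had an unadjusted p under 0.05 upward, where 16.2% of all tested genes did. A positive log2 fold change was seen in 14, where 58.8% of all tested genes had one. The median was 0.51 against 0.21 over all tested genes. Klf4, without young fresh counts, passed the filter only through the stimulated libraries, so these counts and the median are no support. Whether these 18 genes differed from the members was not tested. The closest, the Krüppel-like factors Klf2 and Klf4, had adjusted p of 0.0537 and 0.0543, with Klf4 at 0 in all young fresh libraries and at 3.97 to 9.98 CPM in stimulated ones.

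Of the 11 tested MAP kinase phosphatases, Sprouty and Spred inhibitors and Zfp36 relatives, 0 passed, with Dusp7 at -0.79 ± 0.43 (adjusted p = 0.302 by edgeR) and Dusp2 at 0.73 ± 0.42 (0.337). Of the 21 upstream kinases and factors 0 passed, with the ribosomal S6 kinase gene Rps6ka3 at -0.74 ± 0.23 (0.0944) and the CREB family gene Crem at 3.35 ± 1.12 (0.127). Heat shock genes, followed as a sign of cell handling, gave 0 of 8, with Hspe1 at 0.50 ± 0.11 (0.0504) and Dnaja1 at -0.74 ± 0.24 (0.102).

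In stimulated cells the members had positive log2 fold changes, labelled KO over WT, in 8 of the 9 tested, where 50% of the 10494 genes tested did. Of the 9, 0 passed the test, where 1.23% of all genes did. Egr1 had the smallest adjusted p, at 18.6 and 53.2 CPM in WT against 46.9 and 188 in labelled KO, a log2 fold change of 1.73 ± 0.49 (adjusted p = 0.134 by edgeR, n = 2 against 2). Its groups overlapped, since WT replicate 2 lay above labelled KO replicate 3. Fos and Jun did not overlap between the genotypes, at 1.13 ± 0.37 (0.199) and 0.67 ± 0.22 (0.214).

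Zfp36 was the third member without overlap, at 28.6 and 34.7 CPM in WT against 37.8 and 74.8 in labelled KO (0.85 ± 0.30, adjusted p = 0.253 by edgeR). Nr4a1 had the highest log2 fold change, 1.88 ± 0.66 (0.247), at 3.33 and 6.60 CPM in WT against 5.79 and 30.8 in labelled KO. Only 1 of those 4 libraries, labelled KO replicate 4, was above 7 CPM. Dusp1 followed the same order of libraries (0.97 ± 0.35, 0.264), as did Ier2 (0.70 ± 0.32, 0.444). Junb stood at 0.42 ± 0.20 (0.465) and Jund at -0.06 ± 0.30 (0.976).

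For most members the size of these differences depended on a single library. Labelled KO replicate 4 was the highest of the 4 stimulated libraries for 9 of the 10 members, all but Jund, and the members summed to 783 CPM in it, against 392 in labelled KO replicate 3 and 301 and 378 in WT. With all 4 libraries, 7 of 9 members had an unadjusted p under 0.05 upward (all but Junb and Jund), where 5.97% of all genes did, and the median log2 fold change was 0.85 against 0.00 over all genes. Leaving out labelled KO replicate 4 leaves a single library in its group, so only the sizes are given. Egr1 then stood at 0.40, Nr4a1 at 0.24, Dusp1 at 0.20, Zfp36 at 0.27, Fos at 0.65 and Jun at 0.50 (log2 fold changes by edgeR). The 3 genes whose libraries did not overlap with all 4 libraries are a share of 9 to be read beside the 19.5% of all genes that did the same.

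**Figure D3:**
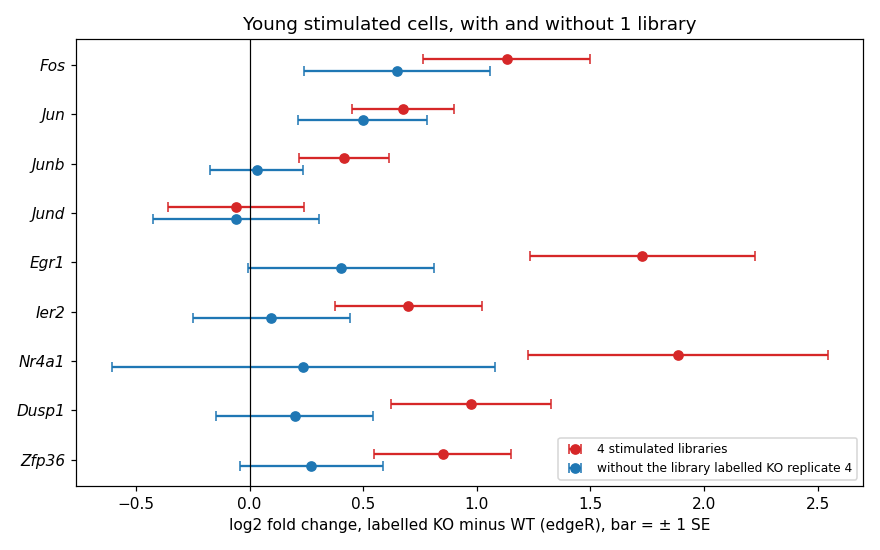
Log2 fold change of 9 members in stimulated young cells, labelled KO minus WT, ± 1 SE by edgeR, over 4 libraries (red) and without labelled KO replicate 4 (blue). Egr1 moves from 1.73 to 0.40 and Nr4a1 from 1.88 to 0.24, while Jund stays at -0.06.

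Other tools gave other counts for this comparison. Without a filter on low counts edgeR called 4 of the 10 members (Egr1, Fos, Nr4a1 and Dusp1), a count to be read beside that of all genes at that setting, given in the closing section. DESeq2 called 0 and limma voom 0. With 1 stimulated library left out at a time, log2 fold changes ran from 0.40 to 2.67 for Egr1 and from 0.65 to 1.88 for Fos.

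Genes of the same pathway in that comparison gave 0 passing in each list. Fosl2 stood at 32.6 and 35.3 CPM in WT, 24.8 in labelled KO replicate 3 and 163 in labelled KO replicate 4 (1.48 ± 0.53, adjusted p = 0.255 by edgeR). Jdp2, a repressor that binds AP-1 sites, stood at -0.51 ± 0.27 (0.545). Of 20 other immediate early genes Klf6 (0.89 ± 0.24, 0.09997) and Plk2 (2.96 ± 1.02, 0.233) came closest. Both had their highest stimulated value in labelled KO replicate 4, at 128 CPM for Klf6 and 12.6 CPM for Plk2.

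Dusp2, another MAP kinase phosphatase, stood at 0.73 ± 0.28 (adjusted p = 0.314 by edgeR) and Dusp7 at -0.59 ± 0.28 (0.454), among 10 tested. Of 21 upstream genes the MAP kinase kinase gene Map2k1 (0.42 ± 0.17, 0.345) and Srf (0.40 ± 0.17, 0.386) came closest. Of the 8 heat shock genes, Hspa8 stood at -0.34 ± 0.17 (0.493) and Hsp90ab1 at -0.18 ± 0.10 (0.554). Of 12 stem cell identity genes, 11 had an unadjusted p under 0.05 upward, Mllt3 (1.29 ± 0.25, 0.0207) and Mecom (1.16 ± 0.25, 0.0314) rose, Cd34 fell (-0.78 ± 0.16, 0.0242), and the median was 0.85, as for the members. The B cell genes Vpreb1 (-3.08 ± 0.55, 0.0142) and Ebf1 (-3.82 ± 0.81, 0.0299) fell, of 3 tested, and B cell markers summed to 48.2 to 184 CPM in WT and 21.0 to 31.5 in labelled KO. Their part in the members' differences was not tested. The heat shock genes summed to 7838 to 8052 CPM in labelled KO and 8079 to 9606 in WT. Their order of libraries was the reverse of that of the members' sums, a relation that was not tested.

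**Figure D4:**
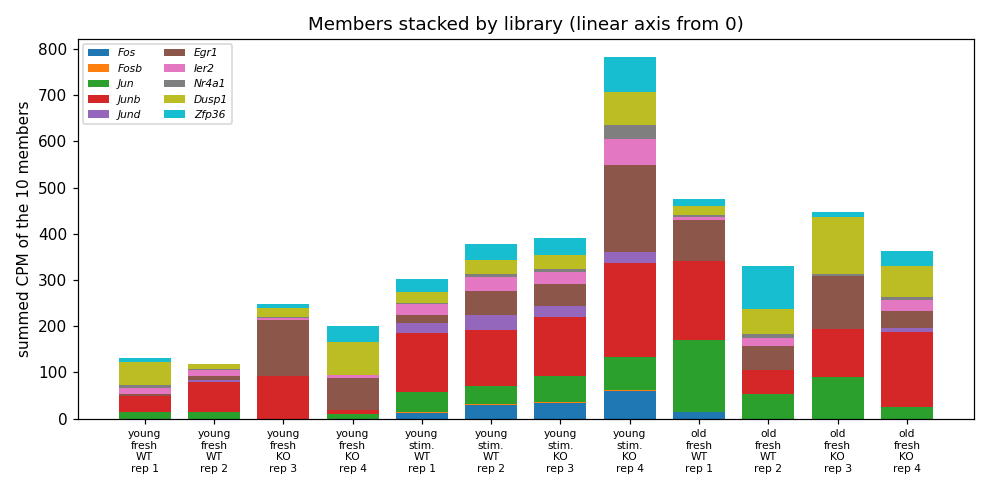
CPM of the 10 members stacked in each of the 12 libraries (linear axis from 0). Stimulated labelled KO replicate 4 reaches 783 CPM, the 4 young fresh libraries lie between 118 and 248 CPM, and the 4 old fresh libraries between 330 and 476 CPM.

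In young fresh cells the members did not pass between labelled KO and WT (0 of 8 tested by edgeR, where 0% of all 10680 genes passed). Egr1 was the 1 member at an unadjusted p under 0.05 upward, where 2.07% of all genes were, and 0 members were so downward (2.79%). Its values of 3.76 and 10.3 CPM in WT and 123 and 67.5 in labelled KO did not overlap, as in 14.7% of all genes, and gave 3.74 ± 0.97 (adjusted p = 0.572 by edgeR). DESeq2 called Egr1 (adjusted p = 0.00257), the 1 member among the 137 genes it called there. Without young fresh WT replicate 1 Egr1 stood at 3.19 ± 1.20 (0.741), and without labelled KO replicate 4 at 4.10 ± 1.04 (0.0184).

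In 3 members, Jun, Jund and Ier2, the order in young fresh cells was the other way, with both libraries labelled KO below both WT ones, as in 17.3% of all genes. Their levels were low, with at most 25 counts a library for Jun. Junb, at 33.2 and 64.6 CPM in WT and 91.3 and 8.90 in labelled KO, and Dusp1, at 48.3 and 11.4 in WT and 19.4 and 71.7 in labelled KO, differed more within than between the genotypes.

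With age, Jun had the lowest adjusted p of the members, short of the threshold. It stood at 14.4, 14.3, 0 and 9.42 CPM in young libraries and at 157, 54.0, 89.7 and 25.2 CPM in old ones, WT before labelled KO, and the ages did not overlap (4.83% of all genes lay likewise). The log2 fold change was 3.22 ± 0.97 and did not pass (adjusted p = 0.0962 by edgeR, n = 4 against 4). DESeq2 called Jun (0.00151), as did edgeR over all 12 libraries (0.0315) and without young fresh WT replicate 1 (0.0435). Without old WT replicate 1 its adjusted p was 0.268 and without old labelled KO replicate 3 it was 0.190. Old WT replicate 1, the library highest in Jun with 589 counts, also held 66 counts of Junos, the antisense gene that overlaps Jun, against 0 in the other 7 fresh libraries. Whether counting used strand is not given, so reads of Jun and Junos cannot be told apart.

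Among all members 0 of 8 tested passed with age, where 2.72% of the 10680 genes tested did. Egr1 (1.496 ± 0.624, adjusted p = 0.293 by edgeR) and Junb (1.28 ± 0.61, 0.375) joined Jun at an unadjusted p under 0.05, a set of 3 of 8 where 7.32% of all genes stood likewise. Jund and Nr4a1 did not pass the filter in the young libraries alone and needed counts of old ones, so counts and medians over the 8 are no support. Egr1 overlapped between the ages, with the young libraries labelled KO at 123 and 67.5 CPM and the old libraries from 38.1 to 115 CPM. Zfp36 stood at 1.71 ± 1.18 (0.595). Nr4a1 (1.15 ± 2.33), Dusp1 (0.66 ± 0.73), Jund (0.53 ± 2.65) and Ier2 (0.49 ± 1.79) had errors above the size of the difference. Fos was seen in 1 of 4 old libraries, WT replicate 1 at 13.3 CPM from 50 counts, and had 0 counts in the other 3.

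The median over the 8 members was 1.22 against 0.05 over all genes. The comparison shares its young fresh libraries with that of stimulation. Heat shock genes Dnajb1 (1.51 ± 0.33, adjusted p = 0.0146 by edgeR) and Hspe1 (0.83 ± 0.19, 0.0207) rose with age among 9 tested. Neutrophil markers summed to 366 to 3114 CPM in old libraries against 4980 to 9548 in young fresh ones. Their part in the members' levels, and that of heat shock genes, was not tested. Of other AP-1 subunits (6 tested), other immediate early genes (17), feedback inhibitors (11) and upstream genes (21), 0 passed with age.

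In old fresh cells 0 of 8 members passed between labelled KO and WT, where 0% of all genes did, and 0 had an unadjusted p under 0.05 in either direction (2.06% of all genes upward and 1.95% downward). DESeq2 called 0 of 8 as well. Dusp1 was the 1 member above WT without overlap, as in 16.5% of all genes, at 18.9 and 54.3 CPM in WT and 122 and 66.6 in labelled KO (1.38 ± 1.04, adjusted p = 1 by edgeR). Zfp36 stood at 16.2 and 93.1 CPM in WT and 11.4 and 33.3 in labelled KO, a 5.74-fold difference between the WT replicates alone. The change with stimulation was not shown to differ between the genotypes for any of the members that could be tested (0 passed by edgeR, where 0% of all genes did, and 0 had an unadjusted p under 0.05, where 5.96% of all genes did upward and 3.60% downward). DESeq2 called 0 there. Fos, at 0 in both young fresh groups, entered the fit but has no interaction that can be estimated. The term was 3.46 ± 2.41 for Nr4a1, 2.29 ± 1.69 for Jun and -2.0 ± 1.2 for Egr1.

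Across the 6 groups, 8 of the 10 members had their highest group mean in stimulated cells, and Jun and Dusp1 in old ones. Jun was highest in old WT (105 ± 72 CPM, SD, n = 2), followed by stimulated labelled KO (64.6 ± 10.2), old labelled KO (57.5 ± 45.6) and stimulated WT (41.1 ± 3.5), an order whose neighbours did not differ beyond their spread. Jund was highest in stimulated WT (26.2 ± 7.4 CPM) and stimulated labelled KO (24.7 ± 0.23), which overlapped, and all other groups were at 3.72 CPM or lower. Fos followed the order stimulated labelled KO (45.9 ± 18.5), stimulated WT (21.2 ± 12.1) and old WT (6.64 ± 9.39), with 0 in the remaining 3 groups.

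The genes outside these lists whose levels over the 12 libraries were most like the members' mean standardised log2 CPM were Ube2j2 (Pearson r = 0.858), Snrnp40 (0.845), Eif4a3 (0.840), Dnmt1 (0.832) and Gpx1 (0.829), out of 6389 genes averaging 20 CPM or more. All 5 had their highest mean in stimulated cells, for instance Dnmt1, the maintenance DNA methyltransferase, at 278 CPM against 59.3 in young fresh and 90.7 in old cells. The 12 libraries share their groups and their depth, so these values are a description.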

How the data were processed

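RNA of 12 libraries was read as QuantSeq 3′ FWD tags, 1 tag per transcript, per the labels' protocols. The deposited values are raw counts for each gene symbol; the submitters' processing notes name HISAT2 2.2.1, HTSeq 0.9.1, DESeq2 1.34.0 and the build mm10. The annotation, strand setting and read filters are not given in the sources used here. From the counts, CPM were computed with TMM library sizes and not corrected for length, since a transcript gives 1 tag. Genes passed filterByExpr (minimum count 10, minimum total 15), and groups were compared with edgeR 4.0.16 quasi-likelihood tests in R 4.3.3, Benjamini-Hochberg adjusted over all genes tested, with a threshold of 0.05. The SE given with an edgeR log2 fold change is its absolute size divided by the square root of the test's F statistic. The fits held the 8 young libraries (stimulation and its interaction with genotype), the 8 fresh ones (age and genotype in fresh cells) or the 4 stimulated ones. DESeq2 1.42.0, limma 3.58.1, other scaling, no filter, all 12 libraries and leaving out each library were alternatives. Scripts were tested on simulated data.

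The depth of 1600155 to 5164720 counts makes 1 count worth 0.207 to 0.627 CPM. A group without counts was bounded by 3 counts over its libraries, which covers counting error only. The members and gene lists were chosen with earlier results of these data known. All members were named, with the 2 genes of smallest adjusted p from each other list in the comparisons of stimulation and of stimulated genotypes. Counts of non-overlapping libraries, counts at an unadjusted p and the motif search were added after the data had been seen. Members next to or overlapping another gene (Jun with Junos, Jund with Gm11175, Junb with Prdx2, Zfp36 with Gm44710, Dusp1 with Ergic1) could share reads with it.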

Additional observations from a re-analysis of the deposited data

How the results depend on the processing

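Counts of members past the threshold depended on the fit. With stimulation, 1 of 9 members passed in the fit reported (444 of all genes), 2 without a filter, 4 with DESeq2 (1541 genes), 0 with all 12 libraries, and 2 with limma voom (712 genes). Leaving out 1 library at a time gave 0 to 4 members and 51 to 1871 genes. Without young fresh labelled KO replicate 3 or 4 it was 4 members, with 1460 and 1871 genes, and without any 1 stimulated library it was 0 members. With age, where 0 members and 291 genes passed in the fit reported, 1 member (Jun) passed without a filter (450 genes), with DESeq2 (917) and with all 12 libraries (577), and leave-one-out fits gave 0 to 2 members and 287 to 551 genes.

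In young fresh cells between labelled KO and WT, where 0 passed in the fit reported, 10 genes passed without a filter, 137 with DESeq2 (1 member, Egr1) and 3 with all 12 libraries, and leave-one-out fits gave 0 to 1 members and 10 to 65 genes. In stimulated cells 129 genes passed in the fit reported, 340 without a filter (4 members), 0 with all 12 libraries and 227 with limma voom, and leave-one-out fits gave 0 to 2 members and 24 to 296 genes. In old fresh cells 18 genes passed without a filter, 105 with DESeq2, 5 with all 12 libraries and 7 to 41 with 1 library left out, with 0 members in each. For the interaction DESeq2 called 182 genes and 0 members, and all other settings 0.

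The replicate numbers are shared between stimulated and fresh and between old and young libraries. Deviations of same-numbered libraries had a correlation from -0.0066 to 0.0118, so the numbers are not taken as pairs. With a replicate block, 3 members (Fos, Jun and Junb) passed with stimulation and 614 genes, 1 member (Jun) and 438 genes passed with age, and 0 passed for the interaction. Of these block fits, the one for the interaction was chosen after seeing the data. With the block the age log2 fold changes of Jund and Ier2 turned to -0.30 and -0.54.

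Differences near 0 turned direction. With stimulation Dusp1 was -0.0615 with RLE size factors and -0.0618 with DESeq2, and -0.37 to 0.71 with 1 library left out. Leave-one-out ranges that crossed 0 were as follows. With age they were -1.68 to 2.43 for Jund and -2.21 to 0.99 for Ier2. Between labelled KO and WT they were -2.47 to 0.89 for Junb and -0.64 to 1.98 for Dusp1 in young fresh cells and -0.32 to 0.26 for Jund in stimulated ones. In old cells they were -2.06 to 0.0884 for Jun, -0.36 to 1.41 for Junb, -0.90 to 0.69 for Egr1, -5.31 to 1.09 for Ier2, -0.65 to 0.38 for Nr4a1 and -2.26 to 0.46 for Zfp36. For the interaction they were -0.49 to 2.88 for Junb, -1.03 to 1.59 for Dusp1 and -4.25 to 0.22 for Zfp36. Group means by total counts instead of TMM sizes stayed within 1 SD for 57 of 60, and moved to 1.43 CPM for Fosb and 135 CPM for Junb in stimulated WT and to 27.6 CPM for Jund in stimulated labelled KO. In an arm left with 1 library, that library is assumed to vary like the others. Depth limits Fosb, Jund, Nr4a1 and Ier2 in fresh cells, where 1 library's value rests on 0 to 114 counts.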
